A study of Mus musculus with 5 samples.

Results

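Hepatocytes secrete most of the protein of blood plasma, and 10 of the genes that encode it are described here in mouse liver organoids: Alb, Afp, Trf, Hp, Ttr, Rbp4, Ahsg and the fibrinogen chains Fga, Fgb and Fgg. They were taken by symbol from a written list, without regard to their values, and all 10 were found among the 52029 genes of the table that holds 4 libraries and among the 45775 symbols of the table that holds 1 further library. The organoids, named hepatobiliary organoids in the series, derive from primary liver stem/progenitor cells of wild-type mice, kept in a medium that contains EGF, nicotinamide and Y-27632. Co-cultures with liver endothelial cells gave 3 libraries, labelled P8, read here as passage 8, and organoids alone gave 2 libraries, labelled P1, read as passage 1; all were taken at day 10. Co-culture and passage therefore cannot be told apart in any difference given below. The labels do not say how many animals or cultures the libraries came from, so the p-values measure library-to-library spread, which may be only technical.

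Plasma proteins are made with a signal peptide, folded and glycosylated in the endoplasmic reticulum and secreted into the blood. Albumin is the main carrier and osmotic protein of adult plasma, and alpha-fetoprotein, its neighbour in the genome, is its fetal relative and is silenced in the liver after birth. Transferrin carries iron, haptoglobin binds free haemoglobin, transthyretin carries thyroid hormone and holds retinol-binding protein 4 in the circulation, fetuin-A (Ahsg) keeps calcium phosphate in solution, and the alpha, beta and gamma chains of fibrinogen assemble into the clotting protein. Haptoglobin and fibrinogen are acute phase proteins, which hepatocytes make in larger amount in response to interleukin 6, while albumin, transferrin, transthyretin, retinol-binding protein 4 and fetuin-A are negative acute phase proteins. Liver stem/progenitor cells share markers with the biliary epithelium and make little of most of these proteins until they turn towards hepatocytes.

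Total counts were 33881617 and 35878241 in the co-cultures M9 and M10, with 58853737 for the third co-culture, against 26466739 and 29195328 in M11 and M12, the organoids alone. Levels below are in CPM, which bring the counts of all 5 libraries to one library size (for sums over a list, by the library total alone), and levels of different genes are compared per kilobase of each gene's longest protein-coding transcript in GENCODE M21 (1161 bases for Rbp4 to 3810 for Fgb), an assumed length since the isoforms in use were not measured. The labelled cell type was checked against marker genes. Biliary markers were abundant in every library: 17 cholangiocyte genes summed to 12350 to 28180 CPM in the co-cultures and to 13880 and 18170 in the organoids alone. Of 26 hepatocyte enzyme genes, 14 had under 10 counts in every library, Cps1, the first enzyme of the urea cycle, among them with at most 1 count, and the 26 summed to 78.7 to 96.7 CPM over the 5 libraries. Endothelial markers were low in the co-cultures too. Pecam1, which marks endothelial cells, had 2, 2 and 10 counts in co-culture and 1 and 2 counts in organoids alone, and 18 endothelial genes summed to 8.90 to 15.9 against 12.2 and 12.5 CPM, much of it Egfl7, with 312, 323 and 318 counts against 182 and 212.

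The promoters of the genes that differed most between libraries, and of their neighbours in the same gene clusters, are shown because these clusters are known to be controlled by shared liver factors. Alb and Afp lie head to tail on chromosome 5 of GRCm38 (plus strand), at 90460897 to 90476602 and 90490737 to 90508907, with 14134 bases between them. The fibrinogen genes lie on chromosome 3 in the order Fgg (83007724 to 83015049, plus strand), Fga (83026076 to 83033627, plus strand) and Fgb (83040141 to 83049863, minus strand), with gaps of 11026 and 6513 bases. The sequences are from RefSeq for GRCm38.p6, run 5′ to 3′ on the gene's own strand and hold 250 bases before the start site and 50 from it onwards. Their places are chr5:90460620-90460919 (Alb), chr5:90490464-90490763 (Afp), chr3:83025903-83026202 (Fga), chr3:83049814-83050113 (Fgb) and chr3:83007474-83007773 (Fgg). Capitals mark matches, on either strand, to a C/EBP motif (TTGCNNAA) and the core of the acute phase element that STAT3 binds (CTGGGAA).
Alb: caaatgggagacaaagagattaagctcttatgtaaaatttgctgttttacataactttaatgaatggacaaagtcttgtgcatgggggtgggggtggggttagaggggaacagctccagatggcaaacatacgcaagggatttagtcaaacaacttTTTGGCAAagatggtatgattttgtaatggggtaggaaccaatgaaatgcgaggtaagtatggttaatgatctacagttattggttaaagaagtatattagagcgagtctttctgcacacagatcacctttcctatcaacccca
Afp: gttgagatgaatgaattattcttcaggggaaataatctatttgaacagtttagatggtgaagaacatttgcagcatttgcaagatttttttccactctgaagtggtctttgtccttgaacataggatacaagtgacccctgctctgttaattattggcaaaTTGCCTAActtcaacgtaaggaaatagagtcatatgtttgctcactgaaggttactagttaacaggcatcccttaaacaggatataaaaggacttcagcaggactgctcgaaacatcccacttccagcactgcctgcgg
Fga: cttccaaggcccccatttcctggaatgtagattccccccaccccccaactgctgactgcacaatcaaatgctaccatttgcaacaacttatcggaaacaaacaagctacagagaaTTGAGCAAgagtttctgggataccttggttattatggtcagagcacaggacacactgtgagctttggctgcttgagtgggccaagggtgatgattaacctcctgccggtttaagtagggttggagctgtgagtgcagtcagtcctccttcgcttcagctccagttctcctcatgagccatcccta
Fgb: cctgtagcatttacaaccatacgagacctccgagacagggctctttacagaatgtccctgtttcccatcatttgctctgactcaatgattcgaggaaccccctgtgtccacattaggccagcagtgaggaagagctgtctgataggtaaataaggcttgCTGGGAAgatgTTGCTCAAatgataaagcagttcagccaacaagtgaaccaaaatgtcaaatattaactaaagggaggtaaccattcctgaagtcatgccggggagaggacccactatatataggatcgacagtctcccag
Fgg: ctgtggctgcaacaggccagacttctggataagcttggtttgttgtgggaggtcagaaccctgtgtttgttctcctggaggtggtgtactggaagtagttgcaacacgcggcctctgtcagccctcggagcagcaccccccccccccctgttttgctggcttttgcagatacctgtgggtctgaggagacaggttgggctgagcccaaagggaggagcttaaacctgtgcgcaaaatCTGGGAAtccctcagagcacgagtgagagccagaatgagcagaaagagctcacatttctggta
The first base of the C/EBP motif stood at -94 in Alb, -89 in Afp, -135 in Fga and -80 in Fgb, counted from the start site. Fgb also held the acute phase element at -91, and Fgg held that element at -13 and not the C/EBP motif. No marked matches overlapped. Among all 32851 promoters of the same length in RefSeq, 10.8% held the C/EBP motif and 11.1% the acute phase element. The promoters of Ahsg and of Rbp4, in 1 of its windows, held only the C/EBP motif, at -32 and -128. These matches describe letters and say nothing of binding in these organoids. Sequences were matched for 7 of the 10 genes; Trf, Hp and Ttr are named only.

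The 10 genes did not move as one block. In M9 and M10, Alb, Trf and Hp fell relative to the organoids alone by edgeR's quasi-likelihood test (Benjamini-Hochberg adjusted p under 0.05 over 15899 genes), none was called higher, and 5 were tested and not called: Afp, Ttr, Rbp4, Fga and Fgb. Over all genes tested, 2.24% were called, 1.25% lower and 0.994% higher. At an unadjusted p under 0.05, 1 of the 8 tested was higher and 5 were lower, beside 2779 of the 15899 genes in either direction. DESeq2 called 1 higher and 5 lower, and the 1 higher was Ttr both times. Fgg and Ahsg did not pass the low-count filter, since only M12 reached its minimum of 0.317 CPM by library total. Of the 8 tested, Alb, Fga and Fgb reached that minimum in 0 co-culture libraries and Hp in 1, so they entered the test through the organoids alone, and their share called and the median log2 fold change of the 8 tested, -5.29 beside 0.00 for all genes tested, are given as a description. By levels, 8 of the 10 were lower in M9 and M10 than in both libraries alone, where 25.1% of genes tested are. The 8 include Fgg and Ahsg, which are not among the genes tested, and also Alb, Fga and Fgb, so this count too is a description. Of the 10, 1, Ttr, was higher, where 24.3% are, and the Afp values overlapped.

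**Figure D1:**
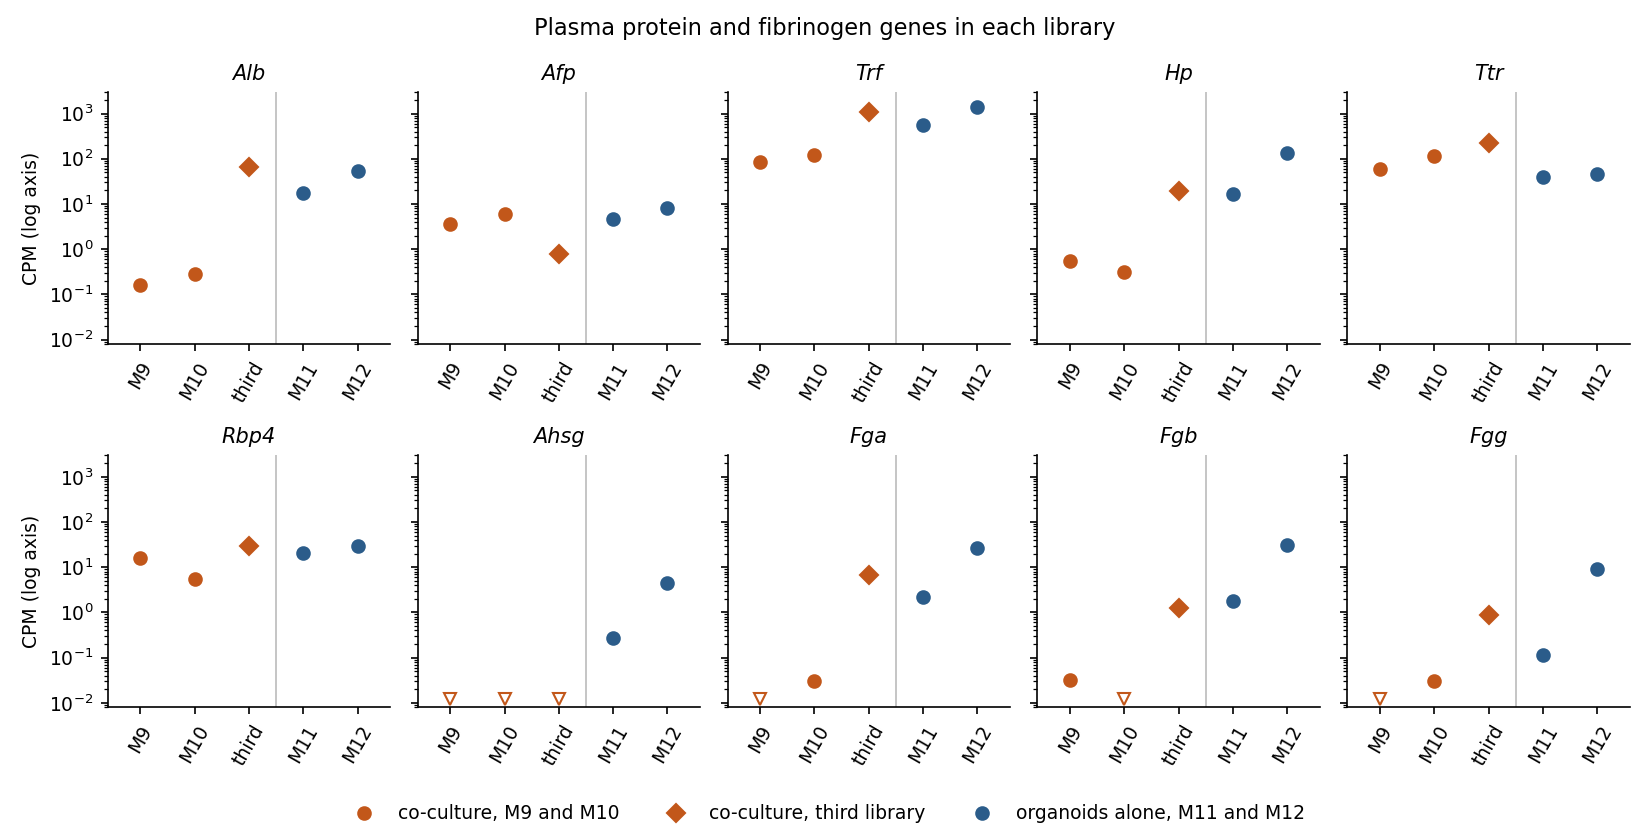
Level of each of the 10 genes in each library, in CPM on a log axis; the co-cultures M9, M10 and the third library stand left of the organoids alone M11 and M12 in each panel, and open triangles mark a count of 0. Alb, Hp and the fibrinogen chains are near the bottom in M9 and M10, and each is higher in the third co-culture library. There Alb lies above M11 and M12, Fgb below both, and Hp, Fga and Fgg between them. Ttr is higher in all 3 co-cultures than in M11 and M12.

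The third co-culture library, which has no replicate in its table and hence no test, stood apart from M9 and M10. Relative to the log2 CPM averaged over M11 and M12, it was at least 2-fold higher for Alb and Ttr, where 14.1% of genes are, and at least 2-fold lower for Afp, Hp, Fgb and Ahsg, where 18.0% are. With all 3 co-cultures counted, only Fgb and Ahsg stayed below both libraries alone, where 16.7% of genes do, and Ttr above, where 15.2% do. These shares are over the 14733 genes tested with all 5 libraries, and Ahsg is not among them. In an edgeR fit of all 5 libraries none of the 9 members tested was called, with 1 higher and 1 lower at an unadjusted p under 0.05, and 2 of all 14733 genes (0.0136%) were called, both lower. Its annotation and table differ from those of the other 4 libraries, and their part in these differences was not tested.

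Albumin was nearly absent from M9 and M10 but not from the third co-culture library. Alb had 5, 9 and 3847 counts in M9, M10 and the third co-culture library, against 442 and 1472 counts in the organoids alone, or 0.158, 0.275 and 65.3 CPM against 17.15 and 53.8 CPM. M9 and M10 were far below both organoids alone, while the third co-culture library was above them. The log2 fold change of M9 and M10 was -7.33 ± 0.76 (SE; edgeR adjusted p = 0.01855, n = 2 per group), and the third co-culture library differed from the organoids alone by +1.10 on the log2 scale. Afp had 3.67, 5.93 and 0.798 CPM in the co-cultures, against 4.58 and 7.93 CPM in the organoids alone. Here M9 and M10 overlapped with the organoids alone (-0.39 ± 0.44, edgeR adjusted p = 0.719) and the third co-culture library was the lowest of all 5, at -2.83. Per kilobase, the ratio of Alb to Afp was thus 0.0437, 0.0471 and 83.0 in the co-cultures, against 3.80 and 6.88 in the organoids alone. Of the albumin family, Gc, the vitamin D-binding protein, also fell, with 45.6, 14.5 and 273 CPM in the co-cultures against 287 and 496 CPM (-3.71 ± 0.60, edgeR adjusted p = 0.0457).

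The calls for Alb, Trf and Hp were lost without M9, M10 or M12. Without M12 the log2 fold changes were -6.29, -2.48 and -5.32, and none was called (edgeR adjusted p = 0.0959, 0.0983 and 0.0983). Without M9 the log2 fold changes were -6.98, -3.00 and -7.95 (edgeR adjusted p = 0.239, 0.311 and 0.469), and without M10 -7.77, -3.53 and -7.15 (edgeR adjusted p = 0.340, 0.378 and 0.597). Without M11 all 3 were called and so were Fga and Fgb, with edgeR adjusted p-values of 0.0253 and 0.0238, and Fgg. The shares of all genes called lower and higher were 0.0% and 0.0% without M12, 0.222% and 0.0702% without M11, 7.92% and 7.74% without M9, and 3.72% and 2.96% without M10. They were 4.25% and 3.95% with DESeq2, which called 5 members lower and 1 higher, 1.15% and 0.642% with limma-voom, which called 1 lower, and 2.58% and 2.34% without a low-count filter, where 1 was lower and 1 higher.

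**Figure D2:**
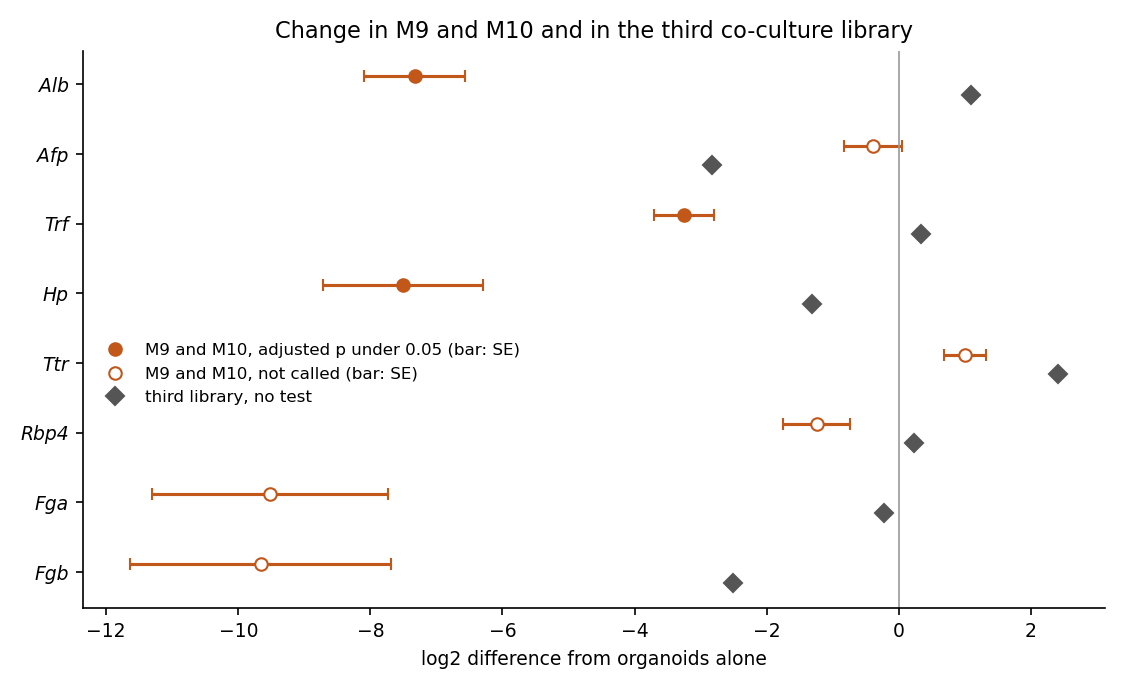
Log2 difference of co-cultures from organoids alone for each gene, for M9 and M10 with standard errors from edgeR and for the third co-culture library as a value without a test. Alb, Trf and Hp are called lower in M9 and M10, and Alb and Trf lie above 0 in the third co-culture library; Fgg and Ahsg have no fitted value.

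Transferrin was the most abundant of the 10 genes per length in the third co-culture library, at 431 CPM per kilobase, and in the organoids alone, at 217 and 530 CPM per kilobase. Trf (chromosome 9, 103204001 to 103230444, minus strand) had 82.7, 119.7 and 1108 CPM in the co-cultures, against 558 and 1362 CPM in the organoids alone. M9 and M10 were below both organoids alone, and the third co-culture library lay between M11 and M12. The log2 fold change was -3.25 ± 0.46 (edgeR adjusted p = 0.0345), and the third co-culture library differed by +0.35. Trf still had 32.2 and 46.5 CPM per kilobase in M9 and M10, and its ratio to Alb per kilobase was 414, 344 and 13.4 in the co-cultures, against 25.7 and 20.0 in the organoids alone.

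Among 15 tested genes of iron handling, 2 rose and 2 fell in M9 and M10, and their median log2 fold change was -0.16. Tfr2, the transferrin receptor by which hepatocytes sense iron, rose, with 113, 123 and 33 counts in the co-cultures, against 7 and 10 counts (+3.50 ± 0.48, edgeR adjusted p = 0.0316). Heph, a ferroxidase of iron export, had 450, 147 and 49 counts in the co-cultures against 7 and 6 (+5.22 ± 0.75, edgeR adjusted p = 0.0349). The transferrin relatives Ltf (lactotransferrin) and Meltf (melanotransferrin) fell, by 1.67 ± 0.28 and 5.81 ± 0.97 on the log2 scale (edgeR adjusted p = 0.0491 and 0.0490). Meltf had 1, 0 and 0 counts in the co-cultures against 23 and 36, so its fitted change depends on the prior count. It reached the filter's minimum in neither M9 nor M10. Tfrc, the receptor that brings transferrin into most cells, had 239, 269 and 111 CPM in the co-cultures against 274 and 207 CPM and was not called (0.07 ± 0.19, edgeR adjusted p = 0.896).

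Haptoglobin was nearly absent from M9 and M10 and differed widely between the organoids alone. Hp (chromosome 8, 109575128 to 109579172, minus strand) had 17, 10 and 1136 counts in M9, M10 and the third co-culture library, against 432 and 3758 counts in the organoids alone, or 0.538, 0.305 and 19.3 CPM against 16.8 and 137.4 CPM. M9 and M10 were below both organoids alone and the third co-culture library lay just above M11. The log2 fold change was -7.51 ± 1.22 (edgeR adjusted p = 0.0460) and the third co-culture library differed by -1.31. Between M12 and M11 the Hp level differed by 8.20-fold.

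Of 11 tested acute phase genes, 4 fell in M9 and M10 and none was called higher by edgeR or DESeq2, with a median log2 fold change of -1.47. Crp, C-reactive protein, had 1.08, 1.01 and 10.6 CPM in the co-cultures against 10.4 and 11.3 CPM (-3.39 ± 0.34, edgeR adjusted p = 0.0182), so that the third co-culture library was at the level of the organoids alone. C3, the central complement protein, fell by 5.57 ± 0.81 and Lcn2, which binds bacterial iron carriers, by 3.09 ± 0.37 on the log2 scale (edgeR adjusted p = 0.0354 and 0.0231). Cd14, the lipopolysaccharide co-receptor, fell by 1.22 ± 0.18 (edgeR adjusted p = 0.0349), and the third co-culture library too had C3, Lcn2 and Cd14 below both organoids alone. None of 16 tested genes of interleukin 6 and oncostatin signalling was called by edgeR, with a median log2 fold change of -0.11; 3 were higher and 5 lower at an unadjusted p under 0.05, and DESeq2 called 1 higher and 3 lower. Junb, an immediate target of that pathway, had 597, 722 and 299 CPM in the co-cultures against 376 and 666 CPM, and Ptpn11, the phosphatase SHP2, 211, 194 and 202 CPM against 232 and 225 CPM.

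Transthyretin was higher in every co-culture. Ttr (chromosome 18, 20665280 to 20674321, plus strand) had 58.8, 113.7 and 227 CPM in the co-cultures, against 39.7 and 45.5 CPM in the organoids alone, and the groups did not overlap. The difference in M9 and M10 was +1.01 ± 0.32 on the log2 scale and was not called (edgeR adjusted p = 0.188); the third co-culture library differed by +2.42. The value moved with the library left out: it was 1.42 without M9, which was called (edgeR adjusted p = 0.000455), and 0.47 without M10 (edgeR adjusted p = 0.183). DESeq2 called it, with an adjusted p of 0.0395, and so did edgeR without a low-count filter, with an adjusted p of 0.0453. M11 and M12 were within 1.15-fold of each other for Ttr, the closest pair among the 10 genes.

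Retinol-binding protein 4, the partner of transthyretin in plasma, did not follow it. Rbp4 (chromosome 19, 38116629 to 38125281, minus strand) had 16.1, 5.59 and 29.5 CPM in the co-cultures, against 20.95 and 30.1 CPM in the organoids alone; M9 and M10 were below both organoids alone and the third co-culture library lay between M11 and M12. The log2 fold change was -1.24 ± 0.51 and was not called (edgeR adjusted p = 0.290), and it was -2.19 without M9, which was called (edgeR adjusted p = 0.00135), and -0.67 without M10 (edgeR adjusted p = 0.207). Per kilobase, the ratio of Ttr to Rbp4 was 3.58, 19.9 and 7.54 in the co-cultures, against 1.85 and 1.48 in the organoids alone.

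**Figure D3:**
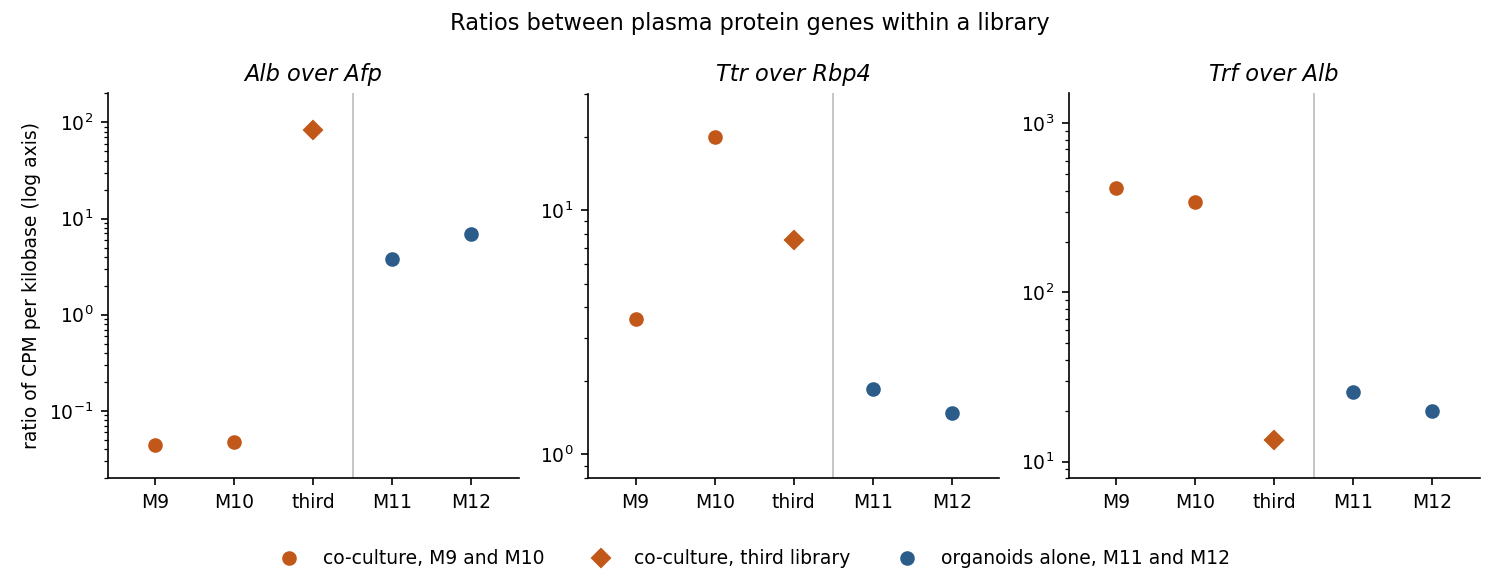
Ratio of CPM per kilobase of Alb to Afp, Ttr to Rbp4 and Trf to Alb in each library, on a log axis, with co-cultures left of organoids alone. The Ttr to Rbp4 ratio is above both organoids alone in all 3 co-cultures, and the Alb to Afp ratio is below 1 in M9 and M10, while the third co-culture library has 83.0.

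Around these carriers, 1 of 19 tested retinoid and thyroid hormone genes rose in M9 and M10, with a median log2 fold change of 0.22. Rbp2, the cellular retinol-binding protein known from the intestine, had 7.94, 15.1 and 1.97 CPM in the co-cultures against 0.349 and 0.914 CPM (+4.16 ± 0.61, edgeR adjusted p = 0.0361). Stra6l, which takes up retinol from retinol-binding protein 4 in liver and gut, fell among 10 tested receptor and uptake genes (median -0.11), with 3, 7 and 111 counts in the co-cultures against 176 and 265 (-5.71 ± 0.57, edgeR adjusted p = 0.0170). Tfr2, given above, was the 1 that rose in that list, and Stra6l reached the filter's minimum in neither M9 nor M10. Stra6, the retinol-binding protein receptor of other tissues, had 177, 71 and 66 counts against 26 and 42 and was not called (+1.60 ± 0.60, edgeR adjusted p = 0.249). In CPM its level in the third co-culture library, 1.121, lay between M11 (1.009) and M12 (1.535).

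The 3 fibrinogen chains were almost without reads in M9 and M10. Fga had 0 and 1 counts there and 394 in the third co-culture library, against 58 and 732 counts in the organoids alone. Fgb had 1 and 0 counts and 73 in the third co-culture library, against 45 and 829. Fgg had 0 and 1 counts and 52 in the third co-culture library, against 3 and 250. For every chain M9 and M10 were below both organoids alone, and M12 had the highest CPM of the 5 libraries.

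Per total count, the organoids alone exceeded M9 and M10 combined by 990-fold for Fga (95% interval 177 to 39160), 1095-fold for Fgb (196 to 43310) and 317-fold for Fgg (56.4 to 12570). These exact binomial intervals cover counting error only, and the ratio for Fgg rests on M12: with M11, which had 3 counts, as the only library of organoids alone it was 7.91 (0.635 to 415). Across all genes Fga and Fgb were not called by edgeR, with log2 fold changes of -9.52 ± 1.78 (adjusted p = 0.0626) and -9.66 ± 1.98 (adjusted p = 0.0779), which rest on 1 co-culture count each and so depend on the prior count. DESeq2 called both, with adjusted p-values of 0.000627 and 0.00127. Without M12 the values were -6.86 and -6.48 (edgeR adjusted p = 0.164 and 0.210). In CPM, M12 exceeded M11 by 11.9-fold for Fga and 17.4-fold for Fgb, so the spread within the organoids alone was wide.

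The chains were not in equal amount. Assembled fibrinogen holds the 3 chains in equal number, but per kilobase Fga made up 75.6% of the sum of the chains in the third co-culture library, against 62.4% in M11 and 43.9% in M12. Fgb made up 9.52% in the third co-culture library against 32.9% and 33.8%, and Fgg 14.8% against 4.79% and 22.3%. Fga was thus the largest share in the 3 libraries with more than 2 counts of the chains. The order depends on the lengths used: by plain counts Fgb held 45.8% and Fga 40.4% in M12, and Fgb exceeded Fgg in the third co-culture library, with 14.1% and 10.0%.

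Fetuin-A was detected in the organoids alone only. Ahsg (chromosome 16, 22891277 to 22899449, plus strand) had 0 counts in M9, M10 and the third co-culture library, against 7 and 125 counts in the organoids alone. Against a floor of 3 counts over the group, it was at least 55.1-fold lower in M9 and M10, and against a floor of 3 counts in the library at least 46.5-fold lower in the third co-culture library. Most of its counts came from M12; without M12 the bounds were 6.15-fold and 5.19-fold. Kng2, a kininogen gene in the same cluster on chromosome 16, likewise had 0 counts in every co-culture and 1 and 46 counts in the organoids alone. Fetub, which lies next to Ahsg, did not share this. It had 14, 10 and 7 counts in the co-cultures against 7 and 40 and was not called (-1.21 ± 0.87, edgeR adjusted p = 0.55). Kng1 had 0, 0 and 2 counts against 0 and 5.

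Genes beside the clusters were read for comparison, chosen by position with the values known. Ankrd17 and Gm9958, before Alb, had log2 fold changes of 0.00 ± 0.15 and -0.40 ± 0.47 (edgeR adjusted p = 0.994 and 0.735). Rassf6, after Afp and Afm, had 0.09 ± 0.28 (edgeR adjusted p = 0.908), and Plrg1, next to Fgb, 0.11 ± 0.17 (edgeR adjusted p = 0.816). Gm9958 was low, with 30, 26 and 6 counts in the co-cultures against 28 and 33 counts. Afm, the fourth member of the albumin family, had 3, 9 and 128 counts in the co-cultures against 5 and 7 counts. Relative to the log2 CPM averaged over M11 and M12, the log2 difference in the third co-culture library was +2.99 for Afm and +1.20 for Rassf6. It was +0.16 for Ankrd17, -2.92 for Gm9958 and +0.18 for Plrg1, beside +1.10 for Alb.

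Per kilobase, the order of the 10 genes differed between libraries. In M9 and M10 Ttr and Trf led, with 49.6 and 32.2 CPM per kilobase in M9 and 95.8 and 46.5 in M10, followed by Rbp4 (13.9 and 4.81) and Afp (1.78 and 2.87), and the other 6 were under 1. In the third co-culture library Trf (431 CPM per kilobase) was followed by Ttr (192), Alb (32.1), Rbp4 (25.4) and Hp (14.3). In the organoids alone Trf led in both libraries. In M11 it was followed by Ttr (33.5 CPM per kilobase), Rbp4 (18.1), Hp (12.5) and Alb (8.43), and in M12 by Hp (102), Ttr (38.4), Alb (26.5) and Rbp4 (26.0). Between M11 and M12, Hp thus passed Ttr and Rbp4, and Alb passed Rbp4. These pairs do not differ beyond the spread of the organoids alone. Ttr was above Rbp4 and Alb, and Hp above Alb, in both libraries.

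Of 44 other hepatocyte plasma protein genes, 18 had under 10 counts in every library and 14 could be tested; 3 of these fell in M9 and M10, none was called higher (10 lower and 1 higher at an unadjusted p under 0.05; DESeq2 called 6 lower and 1 higher), and their median log2 fold change was -2.98. Of the 14, 5 reached the filter's minimum in 0 co-culture libraries and all 5 are among the 10 lower, so these counts and the median are a description only. Besides Gc, those that fell were Itih2, a heavy chain that stabilises hyaluronan, with 14, 12 and 291 counts in the co-cultures against 163 and 365 (-4.60 ± 0.54, edgeR adjusted p = 0.0231), and Ambp, the precursor of alpha-1-microglobulin and bikunin, with 38.8, 93.3 and 846 CPM against 688 and 928 CPM (-3.62 ± 0.45, edgeR adjusted p = 0.0257). The third co-culture library thus had Ambp at the level of the organoids alone. The list summed to 285, 231 and 2841 CPM in the co-cultures, against 1562 and 2156 in the organoids alone.

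The machinery that makes plasma proteins was read beside the shares of all genes. Over all 15899 genes tested, edgeR called 1.25% lower and 0.994% higher, and DESeq2 4.25% lower and 3.95% higher. By edgeR, 2779 genes had an unadjusted p under 0.05. None of 22 secretory pathway genes was called by edgeR or DESeq2, with a median log2 fold change of -0.16 and 2 lower at an unadjusted p under 0.05. P4hb, protein disulfide isomerase, had 840, 891 and 673 CPM in the co-cultures against 700 and 735 CPM, and the chaperone Calr 640, 647 and 603 CPM against 816 and 854 CPM. Of 23 tested transcription factors that drive or repress plasma protein genes, 2 fell and none was called higher, with a median of -0.15. DESeq2 called 3 higher and 5 lower, and at an unadjusted p under 0.05 edgeR had 3 higher and 7 lower. Of the 23, 3 (Nr5a2, Tbx3 and Hlf) reached the filter's minimum in neither M9 nor M10. All 3 are among the 7 lower, so these counts are a description only. Nr5a2, a nuclear receptor of bile acid synthesis, had 0, 3 and 139 counts in the co-cultures against 170 and 320 (-7.50 ± 0.90, edgeR adjusted p = 0.0236). Prox1, a regulator of early liver growth, had 14.3, 15.03 and 66.5 CPM against 41.0 and 38.8 CPM (-1.45 ± 0.19, edgeR adjusted p = 0.0275). Hnf4a, which drives many hepatocyte genes, had 445, 324 and 322 CPM against 307 and 317 CPM (0.30 ± 0.19, edgeR adjusted p = 0.513). Cebpa, a C/EBP factor of mature hepatocytes, had 30.1, 39.8 and 37.7 CPM against 69.8 and 98.2 CPM and missed the threshold (-1.27 ± 0.24, edgeR adjusted p = 0.0626).

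**Figure D4:**
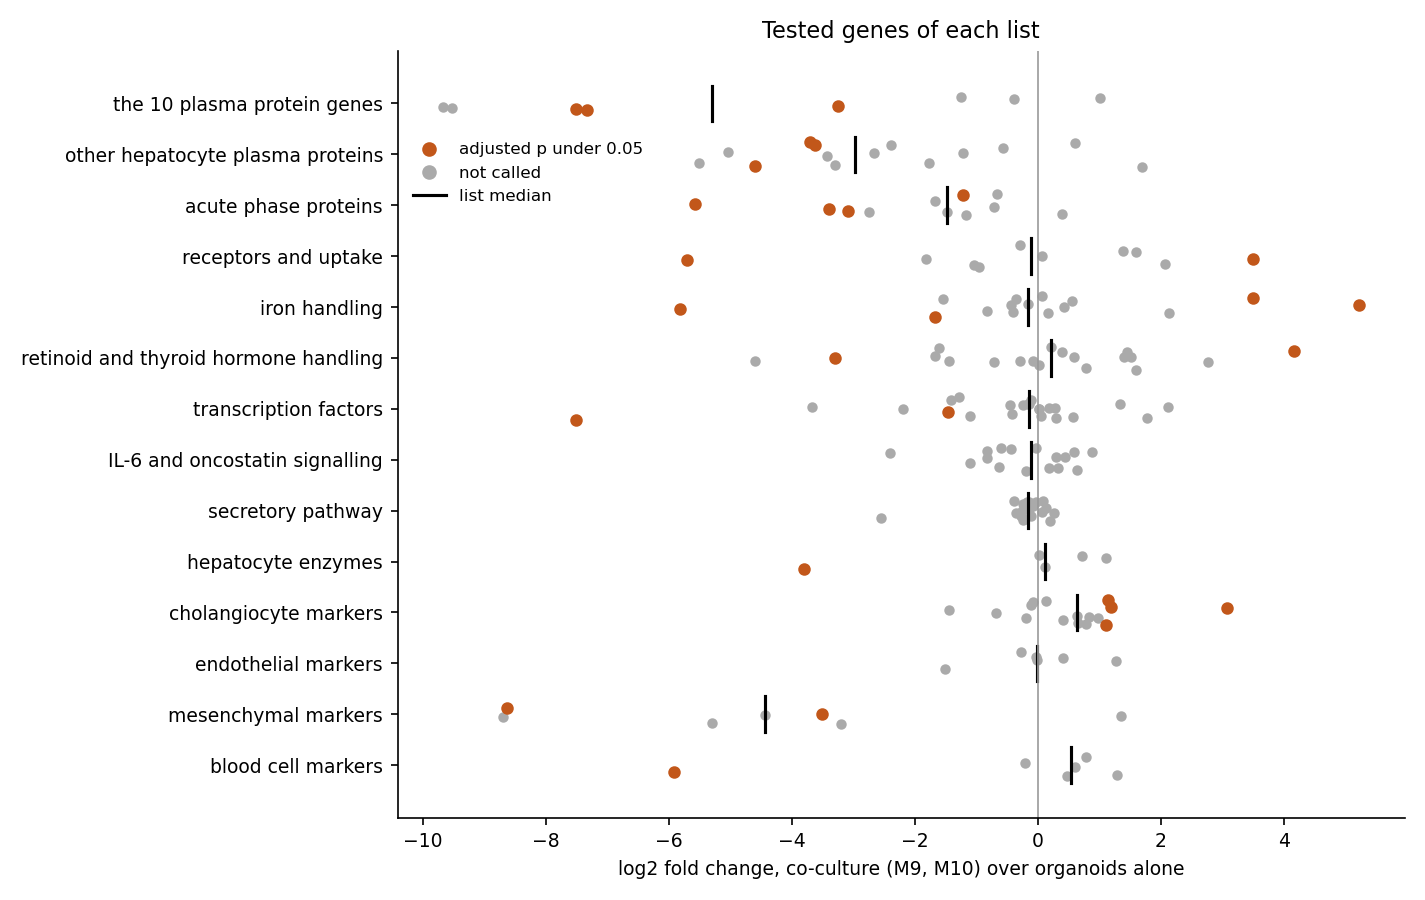
Log2 fold change of M9 and M10 over organoids alone for each tested gene of each list, with the median of the list and a line at 0; genes called by edgeR are coloured and the others grey. The medians of the other plasma proteins and acute phase genes are -2.98 and -1.47, and those of the secretory pathway genes and transcription factors -0.16 and -0.15. Values of genes with almost no co-culture reads depend on the prior count.

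The patterns most like those of Alb, Trf and the mean of Fga and Fgb over the 5 libraries were found by the Euclidean distance of centred log2 CPM among 11574 genes, as a description. Closest to Trf were Tmeff2 (0.79), Fam124a (0.86), Crp (0.99), Peg3 (0.99) and Ambp (0.998). Closest to Alb were Bdkrb2 (2.22), Wnt5a (2.81), Rassf4 (3.36), Agt (3.36) and Bche (3.50), of which Agt and Bche encode plasma proteins of the liver. Closest to the fibrinogen chains were Bdkrb2 (1.83), Lrg1 (2.63), C3 (2.82), Rassf4 (2.94) and Cyfip2 (2.97), where Lrg1 is an acute phase glycoprotein. Bdkrb2, the bradykinin receptor, had 0.190, 0.336 and 13.3 CPM in the co-cultures against 21.3 and 53.0 CPM.

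In these bulk libraries, fewer cells that express a gene and less RNA per cell cannot be told apart. Markers of other cells were read beside the results. In M9 and M10, 4 of 16 tested cholangiocyte markers rose and none was called lower (1 was lower at an unadjusted p under 0.05, and DESeq2 called 1 lower): Aqp1 (+3.08 ± 0.20), Prom1 (+1.19 ± 0.15), Krt7 (+1.11 ± 0.15) and Krt19 (+1.15 ± 0.18), with edgeR adjusted p-values of 0.00740, 0.0264, 0.0303 and 0.0436. In the third co-culture library Aqp1 and Prom1 were also above both organoids alone, while Krt7, at 829 CPM against 1403 and 1536 CPM, and Krt19, at 1294 CPM against 1740 and 2286 CPM, were below both. Of the 5 tested hepatocyte enzymes, 4 had log2 fold changes above 0 and 1 below, with a median of 0.12, and DESeq2 called 1 higher and 1 lower. The 1 below 0, Aldh1l1, a folate enzyme, fell by 3.80 ± 0.44 (edgeR adjusted p = 0.0227), with 23, 15 and 14 counts against 233 and 204.

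The 12 mesenchymal markers summed to 29.5, 35.8 and 16.4 CPM in the co-cultures against 37.3 and 96.6 CPM in the organoids alone. These sums, like those of the other lists, are per total count, without TMM scaling. Most of the sums in M9 and M10 came from Reln, a gene of hepatic stellate cells, with 921, 1176 and 477 counts in the co-cultures against 267 and 406. In TMM-scaled CPM Reln had 29.1, 35.9 and 8.1 against 10.4 and 14.8, so the third co-culture library was below both organoids alone. Without Reln, left out after the values were seen, the other 11 summed to 2.3, 3.04 and 8.27 CPM against 27.2 and 82.7 CPM. The sum was highest in M12, as were Afp, Trf, Hp, Rbp4, Ahsg and the fibrinogen chains. Alb and Ttr were highest in the third co-culture library. Among the 11 markers, Dcn, Lum, Pdgfra, Rgs5 and Thy1 were instead higher in M11 than in M12. Of the 7 tested, 6 had lower and 1 (Reln) higher values in M9 and M10, with a median log2 fold change of -4.44; 3 of the 6 reached the filter's minimum in 0 co-culture libraries. Among the 7, Rgs5, a pericyte gene, fell by 3.50 ± 0.51 and Col3a1, a fibrillar collagen, fell by 8.63 ± 1.28 on the log2 scale (edgeR adjusted p = 0.0354 and 0.0371); Col3a1 had 0, 1 and 13 counts against 71 and 351, and Rgs5 38, 17 and 5 counts against 267 and 248. Of the 6 tested blood cell markers, 4 had log2 fold changes above 0 and 2 below, with a median of 0.54. Of these Lyz2, lysozyme, fell by 5.91 ± 0.95 (edgeR adjusted p = 0.0451), with 4, 2 and 0 counts against 240 and 63.9. Lyz2 reached the filter's minimum in neither M9 nor M10. Of the 6 tested endothelial markers none was called by edgeR or DESeq2, and 1 was higher at an unadjusted p under 0.05; Egfl7 had 9.86, 9.86 and 5.40 CPM against 7.06 and 7.75 CPM, and Flt1 3.57, 2.11 and 0.917 CPM against 1.05 and 1.28 CPM. The part of these cells in the plasma protein results was not tested.

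Of the 24 called genes of the lists outside the 10, 0 were called without M12, 3 without M11 (Itih2, Aqp1 and Col3a1), 21 without M9 and 21 without M10. Ltf, Col3a1 and Lyz2 were not called without M9, nor without M10. With limma-voom 19 were called, without Heph, Ltf, Rbp2, Col3a1 and Lyz2, and without a low-count filter 21, without Gc, Ambp and C3 (edgeR adjusted p = 0.373, 0.213 and 0.333). The fit of all 5 libraries called 0 of them.

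**Figure D5:**
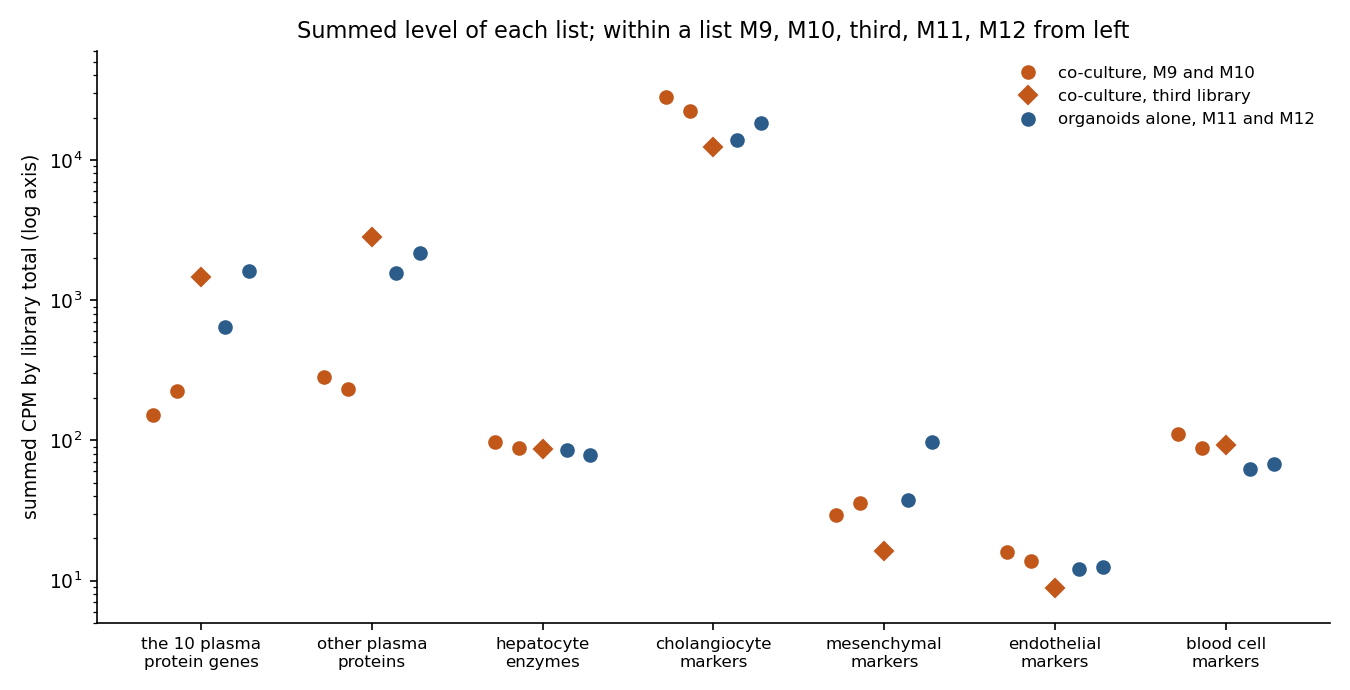
Summed level of each marker list and of the 10 genes in each library, in CPM on a log axis, with co-cultures left of organoids alone. The 10 genes sum to 151, 224 and 1460 in the co-cultures against 644 and 1600 in the organoids alone, while endothelial markers stay between 8.90 and 15.9 in all 5 libraries.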

How the data were processed

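Total RNA was sequenced from 5 samples of mouse organoids, in stranded libraries depleted of ribosomal RNA, per the labels' protocols. The submitters' processing notes list StringTie 2.1.3b, HISAT2 2.1.0, Bowtie2 2.3.4.1, FastQC 0.11.7 and Trimmomatic 0.38 with no role. The counting program, its use of strand and the gene annotation were not given in the sources used here. Reads of overlapping or antisense genes may therefore be shared. The authors deposited estimated counts by Ensembl gene for 4 libraries in 1 table, per the file headers and values. Of its 73925 rows, 1 was kept for each of 52029 genes; 31.7% of genes with a count have one that is not whole. Its columns name a group and a library number but no sample of that group. The authors deposited whole-number counts by RefSeq symbol for the third co-culture library in a separate table. The library number in that column differs from the record's; the record gave the sample.

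Estimated counts were rounded before testing. The 4 libraries were fitted with edgeR 4.0.16 (R 4.3.3; filterByExpr with minimum count 10, TMM, robust quasi-likelihood test, Benjamini-Hochberg adjustment over all genes tested, threshold 0.05), with a common dispersion of 0.07. A standard error is the size of the log2 fold change over the square root of F. CPM were TMM-scaled over 5 libraries joined by symbol (30869 symbols, 91.9% of the counts of the third co-culture library); log2 differences of that library use a prior count of 2 against the mean of M11 and M12. Sums over lists are per total count. CPM per kilobase, computed here, replace the per-length columns of the tables, which were not used. The edgeR step was tested on simulated data. Alternatives were other scalings and filters, DESeq2 1.42.0, limma-voom (limma 3.58.1), each library left out and all 5 libraries; with a library left out, the lone library of an arm is assumed to vary like the other group. All 10 members were named, and from each list at most 4 called genes in order of p, or, in lists with no call, the 2 of highest level. Other receptors, factors and neighbours were named for their role, with values known. Some genes of the lists are not reported here. The members and lists were chosen with earlier results of these data known. Positions are from GENCODE M21 (GRCm38), matched by Ensembl ID.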

Additional observations from a re-analysis of the deposited data

How the results depend on the processing

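Of 96 log2 fold changes of the 8 tested members under the alternatives, 71 kept their direction and their side of the threshold, 16 lost and 8 gained a call, and 1 reversed: Afp, at 0.051 without M12 (edgeR adjusted p = 0.997), in a range down to -0.77 without M10; the cause was not tested. RLE, upper quartile and plain-total scaling and the stricter filter (minimum count 30) left 3 members called lower. There was 1 without a low-count filter (Alb) and 1 with limma-voom (Trf), 5 with DESeq2 (with Fga and Fgb added), 0 with all 5 libraries, and 0 to 6 with a library left out. Members called higher were 1 (Ttr) with DESeq2 and without a filter, and 0 to 1 with a library left out. Over all genes, 356 were called, against 1404 without a filter, 1303 with DESeq2, 2 with all 5 libraries and 0 (without M12) to 2619 (without M9). Counts of 0 or 1 in M9 and M10 limit Fga, Fgb, Fgg and Ahsg: their size is not measurable at this depth beyond the bounds given. No paired analysis was possible because the columns carry no replicate number of the labels.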
